A study of Mus musculus with 564 samples.

Results

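In mouse bone marrow-derived macrophages (BMDMs), 2378 of 59190 cis-regulatory elements (CREs) lost acetylation of lysine 27 of histone H3 (H3K27ac) both after lipopolysaccharide (LPS) and after interleukin-4 (IL-4). They were chosen on the vehicle-treated cells alone. For each CRE, the normalized H3K27ac read counts of 2 libraries were averaged, 5 was added and the log2 difference between a stimulated group and the untreated (UT) group was taken. An element was a member when its UT mean was at least 30 and the difference was -1 or lower after both stimuli at 2 h, or after both stimuli at 4 h. Of the 32114 CREs with a UT mean of at least 30, 8111 met the same limit after LPS only, 2115 after IL-4 only, and 157 after each stimulus but at different times. The elements of the shared loss are called shared-loss elements here.

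All cells were wild-type BMDMs grown from the bone marrow of male C57BL/6 mice of 6 to 8 weeks. They were treated for 1 h with the vehicle dimethyl sulfoxide (DMSO) or with a kinase inhibitor in clinical use or trials (CKI; 58 compounds). LPS or IL-4, each at 10 ng/mL, was then given for 30 min, 1 h, 2 h or 4 h, or no stimulus was given. H3K27ac was measured by chromatin immunoprecipitation and sequencing (ChIP-seq) in 564 libraries. There were 18 DMSO libraries, 2 for UT and 2 for each stimulus and time, and the remaining libraries were from CKI-treated cells, with 73 for UT and 55 to 63 for each stimulus and time. UT cells carried a title of 0 h and a treatment label of 4 h without stimulus, and no unstimulated series ran beside the stimulated times. A change after stimulation and a change with time or handling in the dish can therefore not be told apart. Most CKI conditions were single libraries and the labels do not say which libraries came from separate animals, so p-values measure the spread between these libraries. The value of a CRE is a bulk value: fewer cells with the mark and less mark per cell cannot be told apart.

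H3K27ac is laid down mainly by the acetyltransferases p300 and CBP at active promoters and enhancers, and its level is commonly used as a measure of enhancer activity. In macrophages, most enhancers are bound by the lineage factor PU.1 together with AP-1, C/EBP and RUNX family proteins. LPS signals through Toll-like receptor 4 to NF-kB, MAP kinases and interferon regulatory factors, whereas IL-4 signals through JAK kinases to STAT6, so the stimuli use largely separate signal chains.

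The macrophage label was checked against marker promoters. A CRE was taken when its centre lay within 1 kb of the marker's start and no other start was nearer. Of 10 macrophage markers, 6 had such a CRE, with UT values of 226 to 647, among them Itgam and Lyz2. For Csf1r, Adgre1, Cd68 and Spi1 no such CRE was found in the table used. A wide CRE centred further away, or one nearer to another gene's start, was not counted. A missing CRE at a start therefore does not separate cell types here. Of the markers of other cells, the B cell gene Ms4a1 was at 70.0 and the granulocyte receptor gene Csf3r at 320. S100a8 was at 12.5 and the fibroblast gene Col1a1 at 3.50. None of the T cell or erythroid markers had such a CRE in the table used. The part of other cells in the results was not tested. Normalized counts summed to between 5923684 and 6873668 per DMSO library and between 4066894 and 12391409 per CKI library. One CKI library, PH797804 with LPS at 30 min, had 21% of CREs at 0, beside 0.0405 to 6.41% in the other CKI libraries.

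The central 300 bases of 7 shared-loss elements are given here because these elements had the lowest values after both stimuli, the highest values at rest or the lowest coefficients in the CKI-treated cells. They are forward-strand sequence of the mouse build mm10 from RefSeq. Capitals mark matches on either strand to the PU.1 and ETS core GGAAGT, the AP-1 motif TGANTCA, the C/EBP motif TTGCNNAA or the RUNX motif TGTGGT, and none of these matches overlapped. The names are those of the nearest protein-coding transcription start. In order, the windows are chr4:122923411-122923710, chr9:63780570-63780869, chr13:56631369-56631668, chr7:142392524-142392823, chr14:33245914-33246213, chr11:119796468-119796767 and chr17:70719967-70720266.
Cap1: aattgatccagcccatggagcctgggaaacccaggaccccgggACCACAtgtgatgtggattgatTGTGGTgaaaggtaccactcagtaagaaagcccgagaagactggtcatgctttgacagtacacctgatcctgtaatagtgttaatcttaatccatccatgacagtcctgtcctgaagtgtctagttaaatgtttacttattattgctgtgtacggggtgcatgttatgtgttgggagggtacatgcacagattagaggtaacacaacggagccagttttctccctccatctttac
Smad3: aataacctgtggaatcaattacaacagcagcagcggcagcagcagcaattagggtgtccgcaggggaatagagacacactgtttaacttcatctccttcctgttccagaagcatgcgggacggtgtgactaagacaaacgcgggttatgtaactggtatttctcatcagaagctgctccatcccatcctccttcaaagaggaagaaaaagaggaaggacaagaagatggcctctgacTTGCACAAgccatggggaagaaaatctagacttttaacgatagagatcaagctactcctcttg
Tgfbi: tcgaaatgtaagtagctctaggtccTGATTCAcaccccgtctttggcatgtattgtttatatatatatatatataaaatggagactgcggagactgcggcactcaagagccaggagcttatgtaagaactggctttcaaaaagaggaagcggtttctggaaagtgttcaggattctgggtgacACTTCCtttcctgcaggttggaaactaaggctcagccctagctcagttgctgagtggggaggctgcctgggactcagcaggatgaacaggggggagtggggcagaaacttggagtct
Ctsd: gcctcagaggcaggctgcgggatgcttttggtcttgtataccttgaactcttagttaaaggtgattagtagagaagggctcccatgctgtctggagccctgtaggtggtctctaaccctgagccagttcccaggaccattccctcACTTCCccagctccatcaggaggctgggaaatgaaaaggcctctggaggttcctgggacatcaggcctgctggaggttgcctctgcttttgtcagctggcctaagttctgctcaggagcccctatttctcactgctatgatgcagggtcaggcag
Arhgap22: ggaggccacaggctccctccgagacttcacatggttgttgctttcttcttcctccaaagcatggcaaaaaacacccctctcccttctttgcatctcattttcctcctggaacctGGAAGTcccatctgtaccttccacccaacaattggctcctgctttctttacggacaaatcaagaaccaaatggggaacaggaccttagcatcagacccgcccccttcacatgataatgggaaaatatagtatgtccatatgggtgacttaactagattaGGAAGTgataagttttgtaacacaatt
Chmp6: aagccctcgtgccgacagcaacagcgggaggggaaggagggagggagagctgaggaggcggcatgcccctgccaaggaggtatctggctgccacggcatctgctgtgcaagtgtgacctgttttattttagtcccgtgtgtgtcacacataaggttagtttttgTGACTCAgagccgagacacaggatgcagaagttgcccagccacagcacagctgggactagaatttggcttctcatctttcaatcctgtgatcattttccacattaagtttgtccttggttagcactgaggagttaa
Tgif1: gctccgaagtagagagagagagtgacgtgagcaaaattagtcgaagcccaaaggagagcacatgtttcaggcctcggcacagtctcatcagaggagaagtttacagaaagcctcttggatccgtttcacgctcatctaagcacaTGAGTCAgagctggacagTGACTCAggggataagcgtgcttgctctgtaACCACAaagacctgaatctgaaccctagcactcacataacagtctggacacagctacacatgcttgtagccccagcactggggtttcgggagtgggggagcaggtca
The Cap1 window held 2 RUNX matches, the Smad3 window 1 C/EBP match, and the Tgfbi window 1 PU.1 and ETS match and 1 AP-1 match. The Ctsd window held 1 PU.1 and ETS match and the Arhgap22 window 2. The Chmp6 window held 1 AP-1 match, and the Tgif1 window 2 AP-1 matches and 1 RUNX match. A match is a description of the letters and not a binding site.

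In DMSO-treated cells, which chose the elements, the median normalized count of the 2378 shared-loss elements was 116 in UT cells, beside 112 over all CREs with a UT mean of at least 30. It was 63.0, 41.5, 27.5 and 38.5 at 30 min, 1 h, 2 h and 4 h of LPS. After IL-4 it was 78.5, 55.5, 43.2 and 51 at the same times. The level was thus lowest at 2 h after either stimulus. On the log2 scale, the median difference from UT was -1.75 at 2 h of LPS and -1.25 at 2 h of IL-4, beside -0.38 and -0.10 for all CREs with a UT mean of at least 30. The limit was met at 2 h by 2012 elements, at 4 h by 1188 and at both times by 822. The median difference between the 2 replicates of a group was 0.14 in UT cells and 0.21 to 0.31 in stimulated cells. At 30 min, which the rule did not use but which shares the UT libraries, 982 elements (41.3%) were already at -1 or lower after LPS and 398 (16.7%) after IL-4. The same share of all CREs with a UT mean of at least 30 was 20.8% and 2.80%. These values are a description with no test.

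The depth of an element is the higher of its LPS and IL-4 differences at 2 h or at 4 h, whichever time was lower. Depth ran from -2.85 to -1.0 with a median of -1.25. The lowest value belonged to an intergenic element 37.5 kb from Cap1, a gene of an actin-regulating protein (chr4:122922203-122924917). Its UT libraries read 242 and 237. With LPS it read 74 and 51 at 30 min, 72 and 49 at 1 h, 59 and 56 at 2 h, and 30 and 21 at 4 h. With IL-4 it read 131 and 141, 98 and 71, 24 and 32, and 20 and 38 at the same times. All 16 stimulated DMSO libraries lay below both UT libraries, and the decline after IL-4 came later than that after LPS.

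The next element lay 22.7 kb from Smad3, which encodes a transcription factor of TGF-beta signalling (chr9:63779845-63781593). It read 260 and 237 in UT cells, 35 and 40 at 4 h of LPS, and 25 and 40 at 4 h of IL-4. An intronic element of Tgfbi, a secreted matrix protein induced by TGF-beta, read 152 and 148 in UT cells (chr13:56630743-56632294). It read 6 and 5 at 4 h of LPS and 19 and 23 at 4 h of IL-4. The groups of these elements did not overlap, which the rule makes all but certain. The remaining 7 of the 10 lowest lay near Bank1 (2 elements), Dscam, Cadm1, Pkd1l2, Mid1ip1 and Msra, with UT means of 73.5 to 177. Of these, the Msra element stood at 645 and 769 at 30 min of LPS, above its UT libraries of 196 and 158, and at 24 and 22 at 2 h.

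The shared-loss elements with the highest UT counts lay near Ctsd, Arhgap22, Dppa3, Snx24 and Ifnar2. The element 4.63 kb from Ctsd, the gene of the lysosomal protease cathepsin D, was the highest (chr7:142389514-142395832). It read 2200 and 2040 in UT cells, 451 and 408 at 2 h of LPS, 944 and 767 at 4 h of LPS, and 999 and 1024 at 4 h of IL-4. An intronic element of Arhgap22, which encodes a GTPase-activating protein for Rac, read 1996 and 2053 in UT cells (chr14:33242602-33249524). At 2 h it read 207 and 202 with LPS and 1231 and 1173 with IL-4. At 4 h it read 451 and 347 with LPS and 1026 and 912 with IL-4. Neither of these large elements was near 0, and at 2 h the Arhgap22 element was far lower with LPS than with IL-4.

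Elements just inside the limit, with a depth of -1.0, lay near Dna2, Havcr2 and Rapgef6. Those just outside, also at -1.0 after rounding, lay near E2f2, Ampd3 and Zeb2. The E2f2 element read 411 and 344 in UT cells, 95 and 97 at 2 h of LPS, and 177 and 196 at 2 h of IL-4. The limit thus runs through a continuum of values.

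Whether the same elements lost H3K27ac in cells the rule did not use was tested in the CKI libraries, with the CKI-treated UT cells as the reference. A linear model with compound and stimulus-by-time terms was fitted with limma to log2(value + 5) over the 59167 CREs with a mean of at least 10. Calls needed an adjusted p under 0.05 together with a log2 difference of 0.5 or more. At 2 h of LPS, 2220 (93.4%) of the shared-loss elements were called lower than UT, beside 23.0% of all CREs tested. At 2 h of IL-4 this was 2011 (84.6%), beside 13.4%. Both calls were made for 1938 elements (81.5%), beside 7.76% of all CREs tested and 13.6% of those with a UT mean of at least 30. Over the CREs with a UT mean of at least 30, the shares with a single call were 40.5% with LPS and 21.2% with IL-4. No shared-loss element was called higher at 2 h after either stimulus, whereas 24.0% of all CREs were called higher with LPS and 9.70% with IL-4.

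At 4 h, 2064 elements (86.8%) were called lower with LPS, beside 20.8% of all CREs, and 1801 (75.7%) with IL-4, beside 11.3%. With IL-4, 1 was called higher, beside 9.36% of all CREs, and with LPS none was. Both calls at 4 h were made for 1607 elements (67.6%), beside 5.61%. Over the CREs with a UT mean of at least 30 these shares were 35.6%, 18.5% and 9.80%. Of the elements lost with LPS only in DMSO cells, 87.6% were called lower at 4 h of LPS and 13.6% at 4 h of IL-4. Of those lost with IL-4 only, these shares were 10.7% and 74.6%. Either pair of calls was made for 2026 elements (85.2%), beside 15.0% of the CREs with a UT mean of at least 30. No call at 2 h or 4 h with either stimulus was made for 48 elements (2.02%), beside 48.1% of those CREs. At 4 h the median coefficient of the shared-loss elements was -1.01 with LPS and -0.77 with IL-4, beside -0.24 and -0.01 over the CREs with a UT mean of at least 30. At 2 h these medians were -1.21 and -0.87, beside -0.33 and -0.04. The CKI coefficients were smaller in size than the DMSO differences, which had chosen the elements.

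The loss was already under way at the early times. At 30 min, 1380 elements (58.0%) were called lower with LPS, beside 18.9% of all CREs, and 766 (32.2%) with IL-4, beside 3.78%. Over the CREs with a UT mean of at least 30 these shares were 34.3% and 6.86%. Without the compound PH797804 the counts were 1359 and 774. At 1 h the counts were 1819 (76.5%) with LPS, beside 19.2%, and 1447 (60.8%) with IL-4, beside 6.81%. Both calls were made for 560 elements (23.5%) at 30 min, beside 2.45% of all CREs and 4.48% of those with a UT mean of at least 30, and for 1211 (50.9%) at 1 h, beside 3.94%. At 1 h the shares over CREs with a UT mean of at least 30 were 34.3% with LPS, 11.8% with IL-4 and 7.06% with both. Of the elements lost with LPS only, 68.6% were called lower at 30 min of LPS and 79.1% at 1 h. The early loss with LPS was thus not particular to the shared-loss elements. Of those lost with IL-4 only, 18.7% were called lower at 30 min of IL-4 and 47.4% at 1 h.

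The columns of the table fall into 6 runs of compounds, which the labels do not name as batches. Fitted within each run, 1858 to 2021 shared-loss elements were called lower at 4 h of LPS and 1014 to 2024 at 4 h of IL-4. The within-run medians lay between -1.11 and -0.94 with LPS and between -1.01 and -0.57 with IL-4. At 2 h the within-run counts were 1960 to 2153 with LPS and 1294 to 2193 with IL-4, and at 30 min 1187 to 1466 and 417 to 984. The direction was the same in every run.

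**Figure D1:**
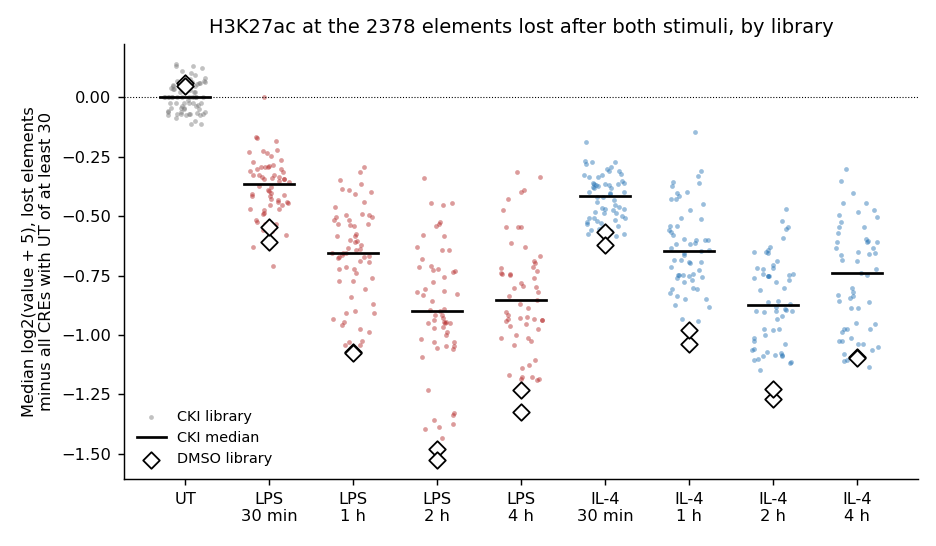
Each point is 1 library and gives the median log2 value of the shared-loss elements minus that of all CREs with a DMSO UT mean of at least 30, by stimulus and time. Dots are CKI libraries, black bars their medians and white diamonds DMSO libraries. The 73 CKI UT libraries sit between -0.11 and 0.14, and the CKI medians at 2 h are -0.90 with LPS and -0.88 with IL-4.

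The loss was visible library by library. In each of the 73 UT libraries with a CKI, the median log2 value of the shared-loss elements lay within -0.11 to 0.14 of that of all CREs with a UT mean of at least 30. At 4 h of LPS the same gap was -1.19 to -0.31 over 57 libraries with a median of -0.85. At 4 h of IL-4 it was -1.13 to -0.30 over 55 libraries with a median of -0.74. Every stimulated CKI library lay below every UT library except 1 of the 62 at 30 min of LPS, that of PH797804.

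An element 117 kb from Chmp6, in an intron of the mTORC1 subunit gene Rptor, had the lowest pair of 4 h coefficients (chr11:119795813-119797421). In DMSO cells it read 209 and 210 without stimulus, 25 and 21 at 4 h of LPS, and 49 and 62 at 4 h of IL-4. In CKI cells it ranged from 126 to 491 with a median of 269 in UT libraries, from 14 to 113 with a median of 40.0 at 4 h of LPS, and from 26 to 145 with a median of 74.0 at 4 h of IL-4. The LPS and UT ranges did not overlap, and the IL-4 range overlapped the UT range only at its top. The coefficients were -2.61 ± 0.086 (SE; limma, adjusted p = 9.94e-115) with LPS and -1.83 ± 0.087 (limma, adjusted p = 2.00e-69) with IL-4. An element 130 kb from Tgif1, a corepressor gene of SMAD signalling, lay in an intron of Dlgap1 (chr17:70719247-70720985). Its CKI median was 184 in UT libraries, 38.0 at 4 h of LPS and 52.0 at 4 h of IL-4. Its coefficients were -2.09 ± 0.091 and -1.71 ± 0.092. The Smad3, Msra and Cap1 elements followed, with coefficients of -1.78 ± 0.087, -1.68 ± 0.093 and -1.69 ± 0.080 with LPS and -1.71 ± 0.087, -1.94 ± 0.093 and -1.67 ± 0.080 with IL-4. Unlike the Chmp6 element, these 3 differed between the stimuli at 4 h by less than the size needed for a call.

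Shared-loss elements were mostly distal. Only 87 (3.66%) had their centre within 1 kb of a protein-coding start, beside 29.7% of the CREs with a UT mean of at least 30, 14.7% of those lost with LPS only and 3.50% of those lost with IL-4 only. By position, 1222 (51.4%) were intergenic, 1090 (45.8%) intronic and 66 (2.78%) exonic. The median distance to the nearest start was 29.7 kb, beside 9.80 kb. Another shared-loss element lay within 25 kb of 1288 of them (54.2%), so neighbouring elements may not be independent of each other, which was not tested. The same share was not computed for other CREs, so this is not a measure of clustering. They were nearest to 1350 distinct genes, and 87 of these genes had 5 or more.

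Of the promoter members, that of Foxp1, a forkhead transcription factor of haematopoietic cells, had the highest UT count (chr6:99433837-99437369). Its DMSO libraries read 840 and 949 in UT cells, 655 and 679 at 30 min of LPS, 33 and 34 at 2 h of LPS, and 208 and 218 at 2 h of IL-4. In CKI cells the coefficient at 4 h was -2.74 ± 0.068 (limma, adjusted p = 1.93e-159) with LPS and -1.05 ± 0.069 (limma, adjusted p = 2.43e-42) with IL-4. A second Arhgap22 element, 0.190 kb from the start and apart from the intronic one above, had UT libraries of 865 and 873 and coefficients of -1.71 ± 0.057 and -1.05 ± 0.057. The promoter of Pmp22, a membrane protein gene, had -1.86 ± 0.054 and -0.68 ± 0.055. The promoter of Lrp1, an endocytic receptor for apoptotic cells and lipoproteins, had -1.43 ± 0.061 and -0.70 ± 0.062, and that of Hacd4, an enzyme of fatty acid elongation, -1.43 ± 0.041 and -0.70 ± 0.041. These 5 promoters fell further with LPS than with IL-4, with LPS minus IL-4 coefficients called at 4 h in each. At the promoters of the scavenger receptor gene Stab1 and the sialic acid receptor gene Cd33, the coefficients were nearly the same for both stimuli. They were -0.99 ± 0.055 and -1.04 ± 0.056 at Stab1, and -0.99 ± 0.055 and -1.04 ± 0.056 at Cd33. The promoters of Fos, an AP-1 subunit, and Trib1, a pseudokinase that directs C/EBP-alpha to degradation, had LPS coefficients of -0.46 and -0.66 and IL-4 coefficients of -0.87 and -0.79, of which the LPS value at Fos was below the size needed for a call. The element at 1700064H15Rik had coefficients of -1.15 and -1.13.

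Several loci held many shared-loss elements. Nrp1, a coreceptor for semaphorins and VEGF, was the nearest gene of 16 of them, out of 30 CREs with a UT mean of at least 30. They lay 1.10 to 420 kb from its start, with UT means of 31.0 to 1072. In CKI cells at 4 h, 13 of the 16 were called lower with LPS and 15 with IL-4, with coefficients from -1.63 to -0.14 and from -1.71 to -0.34. The element nearest the start read 995 and 1148 in UT cells, 327 and 354 at 4 h of LPS and 448 and 501 at 4 h of IL-4. Its coefficients were -1.33 ± 0.045 and -0.80 ± 0.046. An element at 191 kb had the opposite order, with -0.79 ± 0.078 with LPS and -1.71 ± 0.079 with IL-4. Within this locus the stronger loss thus belonged to LPS at some elements and to IL-4 at others.

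Trib1 was nearest to 13 shared-loss elements of 32 CREs with a UT mean of at least 30. At 4 h in CKI cells 13 of them were called lower with IL-4 (coefficients from -1.41 to -0.71) and 8 with LPS (from -1.08 to 0.08). The Trib1 promoter read 553 and 574 in UT cells, 878 and 734 at 30 min of IL-4, and 246 and 267 at 4 h of IL-4. With LPS it read 757 and 751 at 30 min and 232 and 257 at 4 h. Its early libraries lay above the UT libraries and its late ones below them, after both stimuli.

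**Figure D2:**
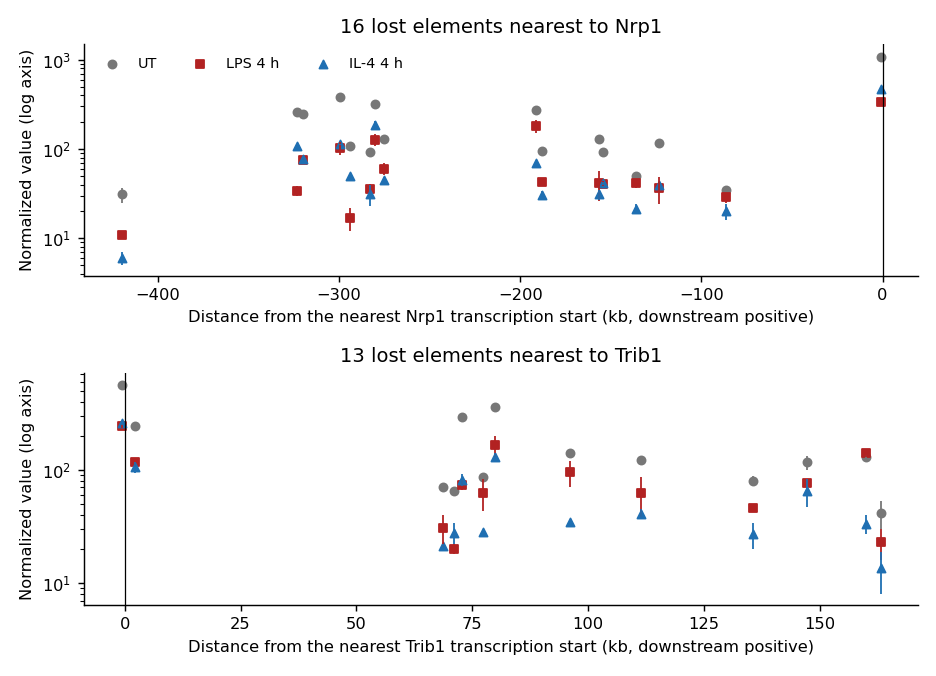
H3K27ac at the 16 shared-loss elements nearest to Nrp1 and the 13 nearest to Trib1 in DMSO cells. The horizontal axis is the distance from the transcription start in kb, the vertical axis the normalized count on a log scale, points are means of UT, LPS 4 h and IL-4 4 h and lines join the 2 replicates. Values run from 31.0 to 1072 at Nrp1 and from 41.5 to 564 at Trib1 in UT cells.

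Cd93, a receptor involved in uptake of dying cells, was nearest to 10 shared-loss elements of 13 CREs with a UT mean of at least 30. With IL-4 all 10 were called lower at 4 h and with LPS 7 were. The largest, in an exon of Cd93, read 1294 and 1260 in UT cells, 1368 and 1501 at 30 min of LPS, 437 and 506 at 2 h of LPS, and 437 and 430 at 2 h of IL-4. Its 4 h coefficients were -1.0 ± 0.048 and -1.07 ± 0.049. Rcbtb2 was nearest to 10 of 11 such CREs, and here LPS coefficients ran from -2.52 to -1.13 and IL-4 coefficients from -1.33 to -0.41. All 10 had a lower coefficient with LPS than with IL-4. Sspn was nearest to 9 of 11, of which 7 lay in introns of Itpr2, the gene of an inositol trisphosphate receptor of calcium release. All 9 were called lower after both stimuli at 4 h, with coefficients from -1.66 to -1.04 with LPS and from -1.77 to -1.21 with IL-4.

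Shared-loss elements near genes of fixed lists were counted by the nearest start within 100 kb, and compared with the 7.40% that they form of all CREs with a UT mean of at least 30. The 7.40% joins promoters, where 87 of 9535 such CREs were shared-loss elements, with distal CREs, where 2291 of 22579 were. It also includes CREs over 100 kb from a start. The promoter part of each list was not computed, so a list's share can reflect how many of its CREs were promoters. No test was made of these shares. Receptors for chemokines and other attractants had the highest share, 29 of 158 CREs (18.4%), with 8 near S1pr1, 6 each near Ccr3 and Cx3cr1 and 5 near Ccr1. The largest, 32.2 kb from Ccr3, read 1044 and 1020 in UT cells, 838 and 721 at 4 h of LPS and 273 and 308 at 4 h of IL-4. Its coefficients were -0.24 ± 0.073 with LPS, below the size needed for a call, and -1.34 ± 0.074 with IL-4. The largest near Ccr1 fell by 0.83 and 1.15. The 8 elements near S1pr1 ran from -1.49 to -1.0 with LPS and from -1.12 to -0.45 with IL-4. The largest Ccr3 and Ccr1 elements thus had the lower coefficient with IL-4, whereas the median over the 29 elements was -0.982 with LPS and -0.914 with IL-4.

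The immediate early, AP-1 and EGR list had 25 of 155 CREs (16.1%), with 6 near the mRNA decay factor gene Zfp36l2, 5 near Egr3 and 2 each near Fos, Fosb, Jun and Nr4a1. An element 5.06 kb from Fos read 440 and 381 in UT cells, 99 and 103 at 30 min of LPS and 32 and 29 at 2 h of LPS. With IL-4 it read 238 and 303 and then 147 and 153 at the same times. Its 4 h coefficients were -1.75 ± 0.080 and -0.81 ± 0.080. An element inside Atf3, a stress-induced repressor, fell by 0.84 with LPS and had a coefficient of -0.35 ± 0.071 with IL-4, below the size needed for a call.

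Phagocytic receptors and lysosomal genes had 20 of 133 CREs (15.0%), with 5 near Stab1, 4 near Gpnmb and 3 near Ctsd. The Ctsd element with the highest UT count fell by 1.40 with LPS and 0.97 with IL-4. In the list of chemokines and cytokines (15 of 106, 14.2%), 6 lay near Tgfbi and 2 each near Cxcl1, Cxcl14 and Il12b. Tgfbi was on this list although it encodes a matrix protein, so the share of the list rests in part on a gene outside its name. The largest near Cxcl14 had coefficients of -1.63 ± 0.076 and -1.54 ± 0.076. The list of the TGF-beta, BMP and SMAD pathway had 14 of 115 (12.2%), of which 8 lay near Smad3, 3 near the ligand gene Tgfb3, 2 near Tgif1 and 1 near the inhibitory gene Smad7.

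The list of lipid handling and nuclear receptors had 17 of 142 (12%). An element 27.5 kb from Abca1, the cholesterol efflux transporter, read 521 and 536 in UT cells, 130 and 137 at 4 h of LPS and 174 and 173 at 4 h of IL-4. Its coefficients were -1.39 ± 0.058 and -0.91 ± 0.059. An element 17.4 kb from Pparg, a lipid-sensing nuclear receptor induced by IL-4, had coefficients of -2.31 ± 0.068 and -0.63 ± 0.069. It read 420 and 435 in UT cells, 136 and 190 at 2 h of IL-4 and 292 and 314 at 4 h of IL-4. It had thus returned part of the way by 4 h.

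Other lists lay near or below the overall share. Macrophage lineage transcription factors had 25 of 298 (8.39%), with 7 near Foxp1, 6 near Bach2 and 3 each near Mef2a, Mef2c and Runx1. The largest near Mef2a had coefficients of -2.60 ± 0.056 with LPS and -0.77 ± 0.056 with IL-4. The Notch, Wnt and Hippo list had 6 of 83 (7.23%), the list of colony-stimulating and growth factor signalling 9 of 130 (6.92%), with 4 near the ERK phosphatase gene Dusp6, and the TLR and NF-kB list 12 of 205 (5.85%), with 5 near Tlr5. The IL-4, JAK and STAT list had 7 of 126 (5.56%), and 1 of these, 6.95 kb from Stat6 itself, had coefficients of -1.44 ± 0.074 and -1.26 ± 0.074. Cell cycle genes had 3 of 106 (2.83%), interferon-stimulated genes 1 of 74 (1.35%), near Irf2, and MHC class II and costimulation genes 0 of 41.

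**Figure D3:**
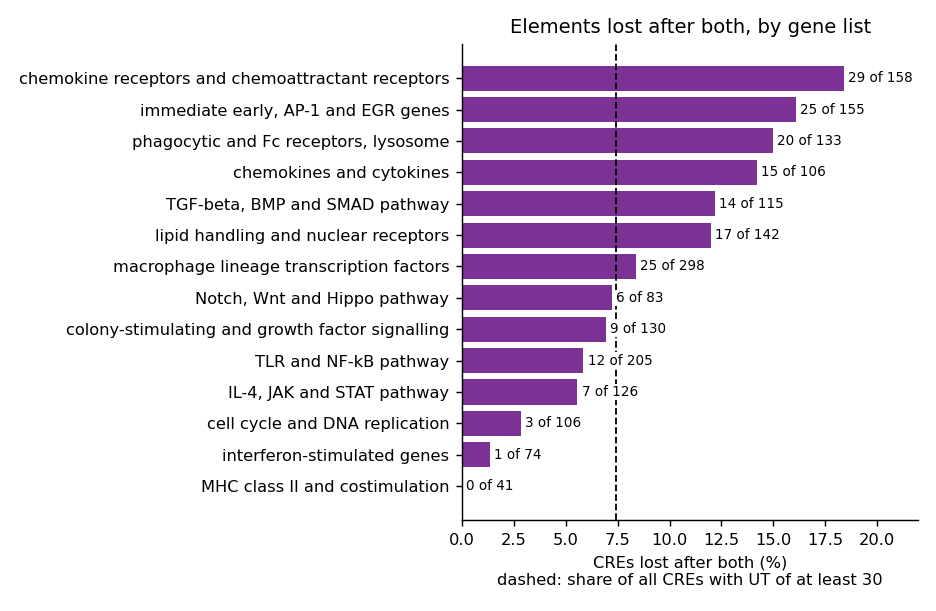
Share of the CREs near each gene list that are shared-loss elements, in percent of the list's CREs with a DMSO UT mean of at least 30. The dashed line is the share over all such CREs, 7.40%, the highest bar is that of chemokine and chemoattractant receptors at 18.4%, and MHC class II and costimulation stands at 0.

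Sequence motifs were counted in the central 300 bases of each element on either strand. Beside the share in the shared-loss elements, that in all CREs with a UT mean of at least 30 and that in the distal ones among these are given. The PU.1 and ETS core GGAAGT was found in 1095 shared-loss elements (46.0%), beside 37.3% and 41.9%. The AP-1 motif TGANTCA was found in 608 (25.6%), beside 16.4% and 21.2%, the C/EBP motif TTGCNNAA in 458 (19.3%), beside 13.7% and 16.2%, and the RUNX motif TGTGGT in 719 (30.2%), beside 22.5% and 26.9%. At least 1 of these 4 motifs was present in 1821 elements (76.6%), beside 63.0% and 71.8%. The FOX motif TGTTTAC was found in 5.80%, beside 3.76% and 4.39%, and the nuclear receptor site AGGTCA in 22.2%, beside 17.2% and 19.5%. The shares of the 4 motifs in the distal CREs lay between the other shares, so part of the gap to all CREs went with distance from promoters. CREs lost with IL-4 only held the AP-1 motif in 27.3% and the RUNX motif in 29.9%, and those lost with LPS only in 17.9% and 26.0%. The C/EBP motif was in 18.6% of those lost with IL-4 only and 14.8% of those lost with LPS only. For the PU.1 and ETS core these shares were 40.4% and 42.1%.

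The STAT6, ISRE and NF-kB motifs had lower shares in the shared-loss elements than in all or in the distal CREs with a UT mean of at least 30. The STAT6 motif was found in 4.84% of shared-loss elements, beside 7.92% and 9.06%, the interferon response element (ISRE) in 3.15%, beside 5.27% and 6.09%, and the NF-kB motif GGANTTTCC in 1.22%, beside 1.56% and 1.77%. The KLF and SP motif GGGCGG, common in CpG-rich promoters, was found in 4.88%, beside 22.4% and 8.03%, and the EGR motif GCGNGGGCG in 0.126%, beside 3.31% and 0.527%. CREs lost with LPS only held the STAT6, ISRE, NF-kB and KLF and SP motifs in 9.58%, 3.39%, 1.12% and 14.1%. Those lost with IL-4 only held them in 5.34%, 6.90%, 2.55% and 5.86%. Beside all CREs with a UT mean of at least 30, each of these motifs was thus also low in at least 1 of these sets. The STAT6 share was not low in those lost with LPS only. The ISRE and NF-kB shares were not low in those lost with IL-4 only. For the MAF motif TGCTGA the shares were 27%, 23.8% and 27.3%. The motifs MEF2, CTCF, the E-box CACGTG, the GT box GGGTGTG and the SMAD motif GTCTAGAC were in 4.16%, 1.85%, 5.30%, 8.87% and 0.168% of shared-loss elements, beside 4.58%, 2.38%, 6.47%, 7.92% and 0.265% of all CREs with a UT mean of at least 30. In CKI cells the shared-loss elements with an AP-1 match had a median 4 h coefficient of -1.07 with LPS and -0.90 with IL-4. Those without one had -0.99 and -0.73. With LPS the median was -1.15 with a FOX match and -1.11 with a KLF and SP match. For the PU.1 and ETS core it was -0.98 with a match and -1.03 without, and for C/EBP -0.96 and -1.02. With IL-4, medians with and without a match were -0.75 and -0.77 for FOX, and -0.68 and -0.77 for KLF and SP. The direction thus differed between motifs, and no test was made of these medians.

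**Figure D4:**
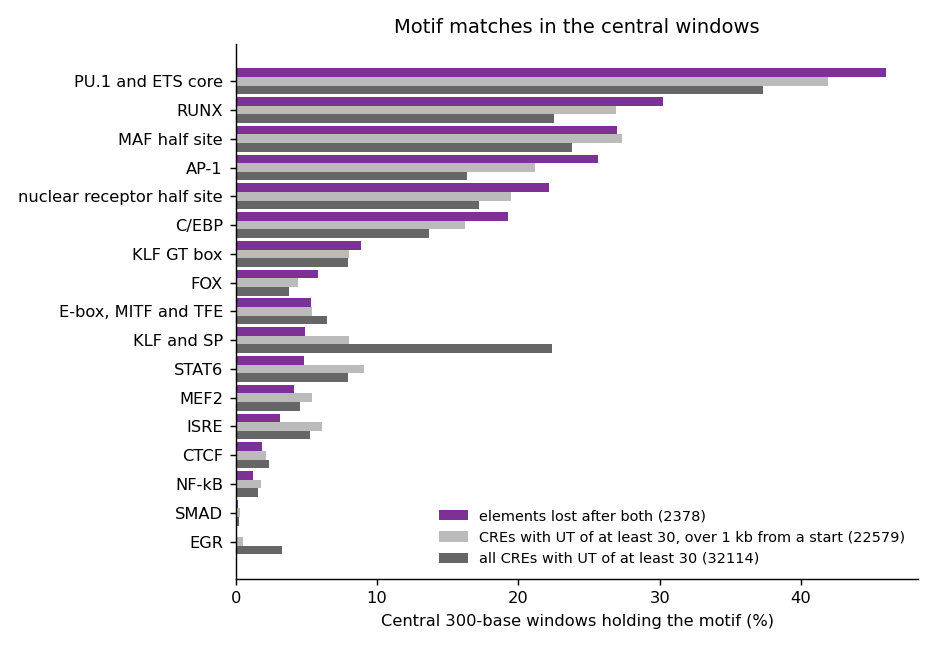
Percent of central 300-base windows that hold each motif, for shared-loss elements, all CREs with a DMSO UT mean of at least 30 and the distal ones among these. The PU.1 and ETS core stands at 46.0, 37.3 and 41.9%, AP-1 at 25.6, 16.4 and 21.2%, and KLF and SP at 4.88, 22.4 and 8.03%.

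How the stimuli compared at these elements was tested as LPS minus IL-4, with no difference from UT taken. In CKI cells this contrast came from the fit above, which included the UT libraries. In CKI cells at 4 h, 770 shared-loss elements were lower with LPS than with IL-4, beside 22.5% of all CREs tested, and 189 were higher, beside 22.0%. The 770 and 189 are 32.4% and 7.95% of the 2378. At 2 h, 850 were lower (23.2% of all CREs) and 52 higher (24.7%), and at 1 h, 815 lower (22.4%) and 140 higher (18.2%). At 30 min, 737 were lower (22.1% of all CREs) and 204 higher (13.2%), and after quantile normalization 568 were lower and 318 higher. The median LPS minus IL-4 coefficients of the shared-loss elements were -0.26, -0.31, -0.30 and -0.24 from 30 min to 4 h, close to the -0.28, -0.25, -0.28 and -0.22 of all CREs with a UT mean of at least 30. Within the 6 runs, the 4 h counts ranged from 506 to 939 lower and from 51 to 555 higher. In run 5, 506 were lower and 555 higher, with a median of 0.08, so that the balance towards LPS was not present there. In run 4 it was weak, with 558 lower and 466 higher. The median in run 4 was -0.03, beside -0.11 over CREs with a UT mean of at least 30. At 30 min the within-run counts were 620 to 888 lower and 116 to 318 higher.

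In DMSO cells, the 8 libraries at 30 min and 1 h gave the same contrast over 50722 CREs, 2372 of them shared-loss elements. At 30 min, 724 were lower with LPS, beside 27.7% of all CREs tested, and 392 higher, beside 19.9%. Quantile normalization, which moved the median of all CREs from -0.11 to -0.01, gave 584 lower and 510 higher. At 1 h, 823 were lower (26.4% of all CREs) and 271 higher (25.4%). The median coefficient was -0.24 at 30 min, beside -0.26 over CREs with a UT mean of at least 30, and -0.36 at 1 h, beside -0.21.

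The largest differences at 4 h in CKI cells belonged to a pair of intronic elements of Zfyve28, a gene of an endosomal regulator of EGF receptor signalling. One of them read 418 and 459 in DMSO UT cells, 21 and 23 at 4 h of LPS, and 182 and 239 at 4 h of IL-4 (chr5:34237865-34239463). In CKI cells its LPS minus IL-4 coefficient was -2.49 ± 0.088 (limma, adjusted p = 3.06e-105), and that of its neighbour was -2.26 ± 0.062 (limma, adjusted p = 7.62e-144). An element 13.9 kb from Tsc22d3, which encodes the glucocorticoid-induced protein GILZ, had -2.19 ± 0.099. In the other direction stood 2 elements near Svil, an actin-binding protein gene, with 2.08 ± 0.10 and 1.85 ± 0.086, and 1 near Asph with 1.70 ± 0.094. The Asph element read 148 and 137 in DMSO UT cells, 61 and 73 at 2 h of LPS, 211 and 194 at 4 h of LPS, and 69 and 46 at 4 h of IL-4. It was thus low at 2 h and above UT at 4 h with LPS, while it stayed low with IL-4.

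At 30 min the element that stood highest with LPS over IL-4 lay in an intron of Smad3 (chr9:63712032-63713657). This element read 69 and 55 in DMSO UT cells, 320 and 336 at 30 min of LPS, 22 and 12 at 2 h of LPS, and 38 and 21 at 30 min of IL-4. Its LPS minus IL-4 coefficient in CKI cells was 2.24 ± 0.095 (limma, adjusted p = 1.45e-82). An element 130 kb from Frmd6 (1.92 ± 0.072) and one in an intron of Carmil1, nearest to Scgn (1.79 ± 0.068), also stood higher with LPS. The Frmd6 element read 223 and 253 in DMSO UT cells, 957 and 1009 at 30 min of LPS, and 77 and 92 at 2 h. Lower with LPS were 2 elements near Gm5269, with -2.29 ± 0.12 and -1.97 ± 0.094, and 1 near Zfp386 with -2.0 ± 0.16. The Gm5269 element with the larger difference read 136 and 106 in DMSO UT cells, 25 and 27 at 30 min of LPS, and 282 and 245 at 30 min of IL-4.

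A brief gain before the loss was seen at few elements. In CKI cells, 67 shared-loss elements were called higher than UT at 30 min of LPS, beside 20.6% of all CREs tested, with coefficients from 0.50 to 1.47. At 2 h of LPS, 56 of these 67 were called lower than UT, and at 4 h 43 were. In DMSO cells all 67 were above UT at 30 min of LPS. At 30 min of IL-4, 17 were called higher, beside 12.1% of all CREs.

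From 2 h to 4 h most shared-loss elements were not called as changed. In CKI cells with LPS, 435 (18.3%) were higher at 4 h than at 2 h, beside 5.68% of all CREs tested, and 9 were lower, beside 2.57%. With IL-4, 110 (4.63%) were higher, beside 0.759%, and 13 lower, beside 0.541%. The median change was 0.14 with LPS and 0.11 with IL-4, beside 0.07 and 0.01 over CREs with a UT mean of at least 30. Within runs, the number higher at 4 h ranged from 1 to 665 with LPS and from 0 to 281 with IL-4, the lowest counts being those of run 2. After quantile normalization the number higher with IL-4 was 59. This contrast was added after the values had been seen.

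The size of the loss was also read compound by compound. For each compound, the median log2 difference of the 2378 elements from the compound's own UT libraries was taken. At 4 h of LPS it ran from -1.42 to -0.04 over 55 compounds with a median of -1.03, and at 4 h of IL-4 from -1.29 to -0.15 over 55 compounds with a median of -0.80. It was below 0 for every compound at every time with either stimulus. DMSO, computed in the same way, stood at -1.46 and -1.10, and its libraries had chosen the elements. Closest to 0 at 4 h of LPS were PH797804 (-0.04), Losmapimod and Pacritinib (-0.46 each). Relative to the median over the CREs with a UT mean of at least 30 in the same libraries, these values were -0.21, -0.35 and -0.55, and Omipalisib stood at -0.49, so that the order depended on the reference. PH797804 and Losmapimod are inhibitors of the p38 MAP kinases, and the p38 inhibitors VX702 and Talmapimod stood at -1.31 and -1.42, or -1.11 and -0.85 on the relative scale. Closest to 0 at 4 h of IL-4 were the JAK inhibitor Momelotinib (-0.15), X396 (-0.28), Mubritinib (-0.29) and Omipalisib (-0.31). Their relative values were -0.35, -0.43, -0.57 and -0.45. The shift of all CREs in these libraries was thus of a size with the differences between compounds. At 2 h of IL-4, Momelotinib, X396, Mubritinib and Omipalisib stood at -0.83, -0.43, -1.03 and -0.62, beside a median of -0.90 over 56 compounds. At 2 h of LPS, PH797804 stood at -0.36 and Pacritinib at -1.12, beside a median of -1.24. The small 4 h losses with Momelotinib, Mubritinib and Pacritinib were thus not seen at 2 h. Losmapimod had no value at 2 h. Within the 6 runs the median compound lay between -1.28 and -0.94 at 4 h of LPS and between -1.06 and -0.55 at 4 h of IL-4. Most of these conditions were single libraries, so that no compound was tested on its own.

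**Figure D5:**
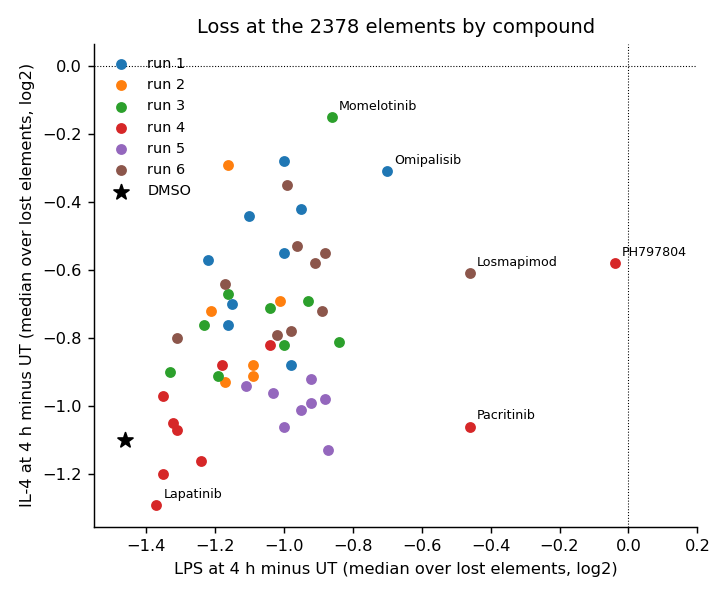
Median log2 difference of the 2378 shared-loss elements from UT at 4 h of LPS (horizontal axis) and 4 h of IL-4 (vertical axis). Each point is 1 compound, colours mark the 6 runs of compounds in column order and the star is DMSO. PH797804 stands at -0.04 with LPS and -0.58 with IL-4, Momelotinib at -0.86 and -0.15, and Lapatinib at -1.37 and -1.29.

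Inhibitor classes were compared as groups of compounds, with 1 value per compound, the mean of 2 h and 4 h minus UT. This fit had no term for the run of compounds. The MEK inhibitors Refametinib and Selumetinib and the JAK inhibitors Tofacitinib and Pacritinib were in run 4. The median compound of run 4 stood lowest of the runs at 4 h of LPS (-1.28). Neither the 6 JAK inhibitors against 51 other compounds with LPS nor the 5 MEK and ERK inhibitors against 52 gave any call by limma among 59167 CREs (0%). The same was found with IL-4, against 52 and 53 other compounds. At an unadjusted p under 0.05, 216 shared-loss elements (9.08%) passed in the MEK and ERK contrast with LPS, beside 4.54% of all CREs, and 88 (3.70%) with IL-4, beside 1.40%. In the JAK contrasts, 60 (2.52%) passed with LPS, beside 3.40%, and 24 (1.01%) with IL-4, beside 1.41%. The median class difference at the shared-loss elements was -0.20 and -0.13 for MEK and ERK inhibitors and 0.08 and 0.06 for JAK inhibitors, with LPS and IL-4 respectively. Over the CREs with a UT mean of at least 30 these medians were 0.04 and -0.02, and 0.03 and 0.02. Over all CREs tested they were -0.02 and -0.02, and 0.12 and 0.06. The median standard error of 1 shared-loss element was 0.211 to 0.246, so that class differences of the size seen there could not be detected at single elements. The smallest adjusted p of a shared-loss element by limma was 0.922.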

How the data were processed

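H3K27ac ChIP-seq reads had been trimmed to 51 bases and mapped to mm10 by the authors, with Bowtie and SAMtools named in the submitters' processing notes. The authors counted reads around the summits of open-chromatin peaks and scaled each library by peaks of invariant signal. The deposited values are these normalized read counts rounded to whole numbers, handled here as a score. Sequencing depth before scaling was not used. Replicates had not been pooled and every column was used.

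The shared-loss elements and the gene and motif lists were chosen with earlier results of these data known. Element positions were placed on the GENCODE gene annotation of GRCm38, and sequences were read from the RefSeq copy of that build. Values were taken as log2(value + 5) and fitted with limma 3.58.1 in R 4.3.3, with a mean trend, after leaving out CREs with a mean under 10. P-values were adjusted by Benjamini-Hochberg over all CREs of a contrast, and calls needed an adjusted p under 0.05 and a log2 difference of at least 0.5. CKI fits had compound and stimulus-by-time terms, and the DMSO fit had 4 groups. Rounding and scaling limit low values most. The fits were tested on simulated data. Replicate numbers did not pair the DMSO libraries: over 36 pairs of groups, the correlation of replicate differences was -0.0873 to 0.0664.

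Elements named with values were the 10 of lowest depth, the 5 of highest UT mean, the 10 promoters of highest UT mean, 3 on each side of the limit, the elements of the 5 genes with most, up to 3 per gene list by UT mean, the 5 lowest in CKI cells at 4 h, and the 3 largest LPS minus IL-4 differences per direction at 30 min and 4 h. The text gives values for those that carry a result. One gene list, 1 motif and 1 marker gene are not reported here.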

Additional observations from a re-analysis of the deposited data

Results flagged for a closer look

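The difference between LPS and IL-4 at the shared-loss elements was tested for a change between 30 min and 4 h in CKI cells. It moved towards lower values with LPS at 480 elements, beside 12.1% of all CREs tested, and towards higher values at 406, beside 20.8%. After quantile normalization these counts were 623 and 283, so that the balance between them rested on the scaling. Within the 6 runs of compounds they ranged from 217 to 545 and from 128 to 658.

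The LPS minus UT difference changed from 2 h to 4 h in the CKI fit, with 435 elements higher and 9 lower at 4 h. The IL-4 minus UT difference changed in the same way, with 110 elements higher and 13 lower.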

How the results depend on the processing

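The number of shared-loss elements depended on how they were defined. It was 1362 with a pseudocount of 20, 1358 with a UT minimum of 100, and 3765 and 1394 with limits of 0.8 and 1.2, and 2293 to 2696 when 1 of the 10 DMSO libraries was left out. With a minimum log2 difference of 1, the elements called lower in CKI cells numbered 597 (LPS) and 33 (IL-4) at 30 min, 1210 and 659 at 4 h, 760 with both stimuli at 2 h and 422 with both at 4 h. With no minimum, 1721 were called lower at 30 min of IL-4. For LPS minus IL-4, a minimum of 1 gave 191 lower and 46 higher at 30 min, 251 and 30 at 4 h, and 121 and 115 for the change between these times. No minimum gave 1300 and 454, 1261 and 456, and 757 and 680. Quantile normalization gave 318 higher at 30 min. From 2 h to 4 h, the number higher with LPS was 61 at a minimum of 1 and 1004 with none. With IL-4 it was 0 and 645, 52 with a pseudocount of 20 and 59 after quantile normalization. In DMSO cells, an adjusted p under 0.01 with a minimum of 1 gave 403 lower and 187 higher at 30 min and 460 and 114 at 1 h. These counts follow from stricter or looser limits, and the cause of the change with pseudocount and quantile normalization was not tested.

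In windows of 1000 bases, the ratio of the share in shared-loss elements to that in all CREs with a UT mean of at least 30 was 1.09 for PU.1 and ETS, 1.29 for AP-1, 1.15 for C/EBP, 1.14 for RUNX, 1.24 for FOX, 0.425 for KLF and SP, 0.819 for STAT6 and 0.790 for ISRE, all on the same side of 1 as in 300 bases.

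With the replicate number as a block, DMSO cells at 30 min gave 711 elements lower and 393 higher with LPS, and the pairing changed no count by more than 1.5 times. Leaving out a run of compounds, the libraries with suffix b or the compound PH797804 likewise moved no count by more than 1.5 times. Of 28 values of named elements, 420 alternatives gave 0 reversals, and 1 value was no longer called, at a minimum of 1. Counting depth is not known for these scaled values, so that the lowest counts after stimulation could not be given a limit of detection.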
